A study of Homo sapiens with 7 samples.

Results

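The 8 genes RIPK1, RIPK3, MLKL, FADD, TRADD, CASP8, CASP10 and CFLAR encode the components of the ripoptosome and of the necrosome. They were chosen by name, as the genes of that symbol among the 57189 genes of the count table, and all 8 were found there. Their mRNA was measured by RNA sequencing in RH30, an established cell line of alveolar RMS. The study set cells treated with BV6 against untreated cells. BV6 is a Smac mimetic, a small molecule that binds inhibitor of apoptosis proteins (IAPs) and makes cIAP1 and cIAP2 degrade themselves. The 7 samples were 4 of RH30 cells left untreated and 3 of RH30 cells that received 5 µM BV6 for 24 h in complete growth medium. All 7 carried the genotype label wt, none had a further treatment, and the labels name no vehicle for the untreated cells. The methods of the study describe RH30 cells that express GFP and luciferase, so that every sample came from 1 cell line. Untreated replicates 2, 3 and 4 and BV6 replicates 2, 3 and 4 share a BC label in their titles, while untreated replicate 1 had no BV6 partner.

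When a TNF family ligand binds its receptor, TRADD and RIPK1 gather at the membrane in complex I, where cIAP1 and cIAP2 attach ubiquitin to RIPK1. When the cIAPs are lost, RIPK1 can move with FADD and caspase-8 into a cytosolic platform called the ripoptosome, in which caspase-8 starts apoptosis and c-FLIP, the product of CFLAR, restrains it. When caspase-8 is not active, RIPK1 can pair with RIPK3, which phosphorylates MLKL, and MLKL then breaks the plasma membrane in necroptosis. These steps run on proteins and their modification, and the measurements below are of mRNA only.

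The 7 samples held between 54070030 and 77220882 counts, and a level of 3 counts stood at 0.0389 to 0.0557 counts per 1000000 (CPM, on TMM-normalized library sizes). Summed over 8 genes of the muscle lineage and RMS, among them MYOD1, MYOG and DES, the level was 2246 to 3212 CPM in untreated and 1383 to 2498 CPM in BV6-treated samples. Of these 8 genes, 7 had a lower mean with BV6, and edgeR called 0 of them at an adjusted p below 0.05. With the replicate number as a block it called 1, CHRND, at a log2 fold change of -0.64 (adjusted p 0.0368, edgeR). Without the block, CHRND was also called by edgeR with no filter on low counts (adjusted p 0.0282) and by DESeq2 (adjusted p 0.0147). DESeq2 with the block called it as well (adjusted p 0.000103). Of 12 leukocyte markers, 10 stayed below 1 CPM in every sample, and the exceptions were CSF1R at 8.30 to 18.1 CPM and NKG7 at 5.29 to 11.1 CPM. In bulk RNA, fewer cells with a transcript and less of it per cell cannot be told apart.

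Of the 8 components, 6 were expressed in RH30 at 1 CPM or more in all 4 untreated samples. These were the adaptors FADD and TRADD, the kinase RIPK1, the initiator caspase CASP8, its regulator CFLAR and the pore-forming effector MLKL. CASP10, a paralogue of CASP8, reached 1 CPM in 2 of 4 untreated samples and in 4 of 7 samples in all. RIPK3, the kinase that activates MLKL, stayed below 1 CPM in every sample. Its counts in untreated replicates 1 to 4 were 7, 4, 6 and 16, and those in BV6 replicates 2 to 4 were 14, 5 and 7. All 8 genes thus had at least 3 counts in each of the 7 samples, with RIPK3 the lowest of them. RIPK3 shares 358 of its exonic bases (11.1%) with a lncRNA on the same strand, and CASP8 shares 343 (4.74%) with another. Whether reads of these lncRNAs make up part of the counts, and so of the detection of RIPK3, was not tested.

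Levels can be set against each other only per length of transcript. For this, counts were divided by the summed exon length of each gene and scaled to a common total per sample (TPM, transcripts per 1000000). In untreated cells the level of FADD was 81.1 ± 14.1 TPM (SD, n = 4), above 91.9% of 19302 protein-coding genes. With the longest transcript as the length of each gene it was 62.9 TPM, above 87.7%. Of the exonic bases of FADD, 59.2% are shared with a lncRNA on the opposite strand, and its share of the counts was not tested. TRADD followed at a level of 13.7 ± 3.59 TPM and CASP8 at a level of 8.59 ± 1.04 TPM. The TPM levels of these genes overlapped, at 9.42 to 18.1 for TRADD and 7.44 to 9.97 for CASP8, and with the longest transcript as the length CASP8 was above TRADD (16.5 and 12.6 TPM). RIPK1 was at 4.91 ± 0.383 TPM, clear of both neighbours in that order. Below it, the TPM levels of CFLAR (1.43 ± 0.171) and MLKL (1.27 ± 0.117) overlapped in untreated cells. In BV6-treated cells they did not, with CFLAR at 1.95 to 2.32 TPM and MLKL at 1.03 to 1.71 TPM. At the low end, the TPM level of CASP10 was 0.365 ± 0.123 and that of RIPK3 was 0.143 ± 0.0982, with overlapping samples. The RIPK3 level was above only 24.8% of protein-coding genes. CFLAR, with the longest exon sum of the 8 at 22478 bases, was at 1.70 TPM by the longest transcript and kept its place, and CASP8 and TRADD were the components whose places changed with the length.

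**Figure D1:**
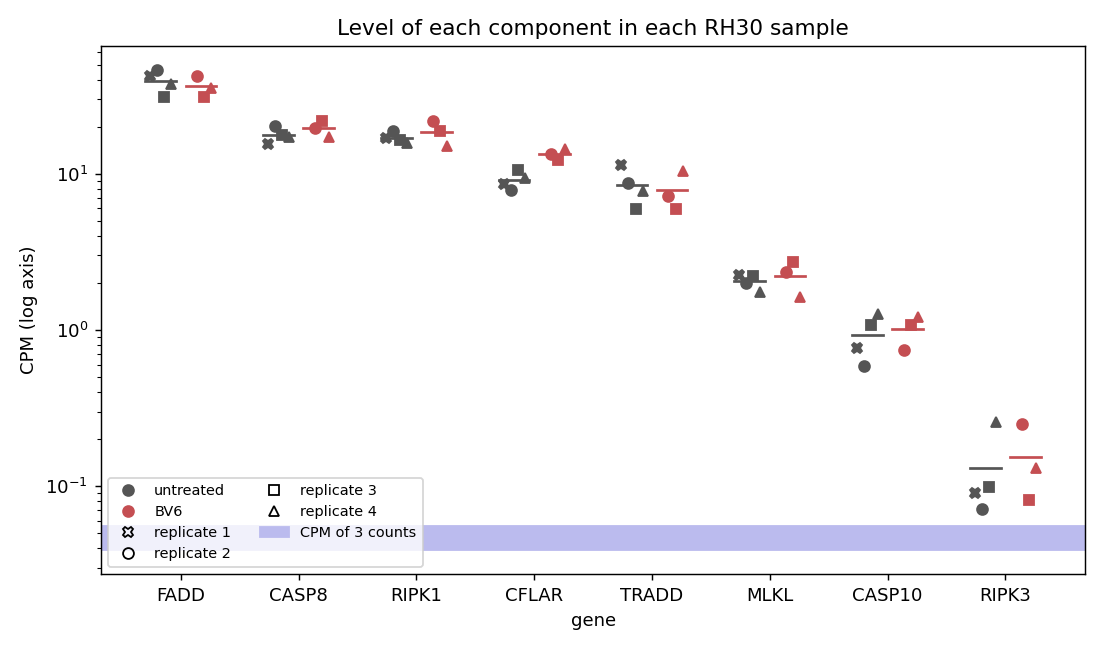
Level of each of the 8 components in every RH30 sample, in CPM on a shared log axis, for untreated (4 samples) and BV6-treated cells (3 samples). Points are samples, short horizontal lines are group means, and the shaded band is the CPM of 3 counts. CFLAR is the component in which every treated sample lies above the untreated range of 7.86 to 10.6 CPM.

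BV6 was then compared with untreated cells across all 23124 genes that passed the filter on low counts, among them 7 of the 8 components. RIPK3 did not pass it. edgeR called 0 of the 7 components at an adjusted p below 0.05, where 0.45% of all tested genes were called. At an unadjusted p below 0.05 there was 1, CFLAR, against 8.39% of all tested genes. Of the 7 fold changes 5 were above and 2 below 0 on the log2 scale, with a median of 0.13 beside -0.01 over all tested genes. In 1 of the 7, again CFLAR, every BV6 sample lay above every untreated sample. Among all tested genes 4.94% had such a gap with BV6 higher, 3.89% with BV6 lower and 8.83% in either direction. DESeq2 called 0 of the 7 as well, beside 401 calls over all genes. The study calls its replicates biological, while the labels do not say whether they were separate cultures, and the p-values measure only the spread between these samples.

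CFLAR encodes c-FLIP, a caspase-8 relative without protease activity that blocks or shapes caspase-8 activation. In untreated replicates 1 to 4 its level was 8.63, 7.86, 10.6 and 9.35 CPM, and in BV6 replicates 2 to 4 it was 13.3, 12.2 and 14.3 CPM. The lowest treated sample was above the highest untreated one, and each BV6 sample was above its partner with the same BC label. The log2 ratios within these pairs were 0.76, 0.20 and 0.62. The means were 9.11 ± 1.17 CPM (SD, n = 4) and 13.3 ± 1.06 CPM (SD, n = 3), which differed by a log2 fold change of 0.54 with an SE of 0.147. In linear terms this was a ratio of 1.46, with a 95% interval of 1.16 to 1.83. The unadjusted p was 0.00446 and the adjusted p of edgeR was 0.237, so CFLAR did not pass the test. It ranked 434th by p among the tested genes. Its adjusted p missed 0.05 by the least with the Wald test of DESeq2, at 0.0507, and reached 0.597 without untreated replicate 1.

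The promoter of CFLAR is shown because it is the one of the components in which a match to the NF-κB consensus (the κB motif, searched on both strands) was found. The 250 bases before the first of its 4 RefSeq starts, on the plus strand of GRCh38.p14 at chr2:201118466-201118715, hold the match in capitals, which begins 97 bases before the start.
CFLAR: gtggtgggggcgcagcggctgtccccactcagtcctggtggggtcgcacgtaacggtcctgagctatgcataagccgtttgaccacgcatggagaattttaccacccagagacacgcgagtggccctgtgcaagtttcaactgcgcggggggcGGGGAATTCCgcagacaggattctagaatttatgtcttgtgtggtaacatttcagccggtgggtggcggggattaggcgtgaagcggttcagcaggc
Promoters were found for 5 of the 8 components, with 12 starts in all, and 1 of the 12 held the κB motif, compared with 5.91% of the 35116 promoters in the table. RIPK3, TRADD and CASP10 had no entry. A match to the interferon-stimulated response element (GAAA, any 2 bases and again GAAA, on both strands) was found in 3 of the 12, in 1 CASP8 and 2 overlapping RIPK1 promoters, compared with 3.57% of all promoters. The STAT motif GAS (TTCNNNGAA, both strands) was found in 1, at the same CASP8 start, compared with 7.66%. A match is a string of letters and does not show binding, and no match says only that the letters are not in that window.

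CFLAR, CASP10 and CASP8 lie side by side on the plus strand of chromosome 2, at chr2:201116154-201176687, chr2:201182872-201229428 and chr2:201233443-201361836 (GRCh38, GENCODE 44). The gaps between them are 6184 and 4014 bases. CASP8, the initiator caspase of both death-receptor apoptosis and the ripoptosome, was at 15.5, 20.3, 17.6 and 17.2 CPM in untreated replicates 1 to 4. In BV6 replicates 2 to 4 it was at 19.8, 21.7 and 17.3 CPM, which overlapped the untreated samples. The log2 fold change was 0.15 with an SE of 0.140 and an adjusted p of 0.802 in edgeR, with a 95% interval of -0.16 to 0.47. CASP10 was at 0.766, 0.588, 1.08 and 1.26 CPM without and 0.748, 1.08 and 1.21 CPM with BV6. Its interval on the log2 scale, -0.57 to 0.83, was the widest of the 7, at 33 to 78 counts per sample. The groups overlapped for both caspase genes and not for CFLAR beside them, which was not called (adjusted p 0.237 in edgeR). Such a gap in either direction was found in 8.83% of all tested genes. The test of the ratio of CFLAR to CASP8 did not pass. That ratio of counts was 0.558, 0.388, 0.604 and 0.542 in untreated replicates 1 to 4. In BV6 replicates 2 to 4 it was 0.675, 0.562 and 0.828, so that replicate 3 lay within the untreated range. The log2 difference was 0.40, with a two-sided exact permutation p of 0.114, or 0.457 adjusted over 4 ratios by the Benjamini-Hochberg method. With 4 against 3 samples this test cannot give less than 0.0571.

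Within 250 kb of the 3 genes, edgeR called 0 of 12 tested protein-coding genes, these 3 included, beside 0.45% of all tested genes. ORC2 and HYCC2 (listed as FAM126B) were higher in every BV6 sample than in every untreated one, as were 4.94% of all tested genes. Their log2 fold changes were 0.17 and 0.30, with adjusted p-values of 0.713 and 0.553 in edgeR. NDUFB3, the nearest tested protein-coding gene on the CFLAR side, gave -0.0030. FLACC1, listed as ALS2CR12, had 5 to 15 counts per sample and a log2 fold change of 0.46. CFLAR shares 777 of its exonic bases with CFLAR-AS1, a lncRNA on the opposite strand, and 1488 with the pseudogene IMPDH1P10, also on the opposite strand. A further 445 are shared with a lncRNA on the same strand that was not found in the count table. The groups overlapped for IMPDH1P10, with a log2 fold change of 1.05 and an adjusted p of 0.687 in edgeR. The level of CFLAR-AS1 was 0.700 ± 0.148 CPM in untreated (n = 4) and 1.14 ± 0.0357 CPM in BV6-treated cells (n = 3), also without overlap, with a log2 fold change of 0.71 and an adjusted p of 0.437 in edgeR. How the counting treated strand and reads shared between genes is not given in the sources used here. Part of these counts may thus come from an overlapping gene, and this was not tested.

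**Figure D2:**
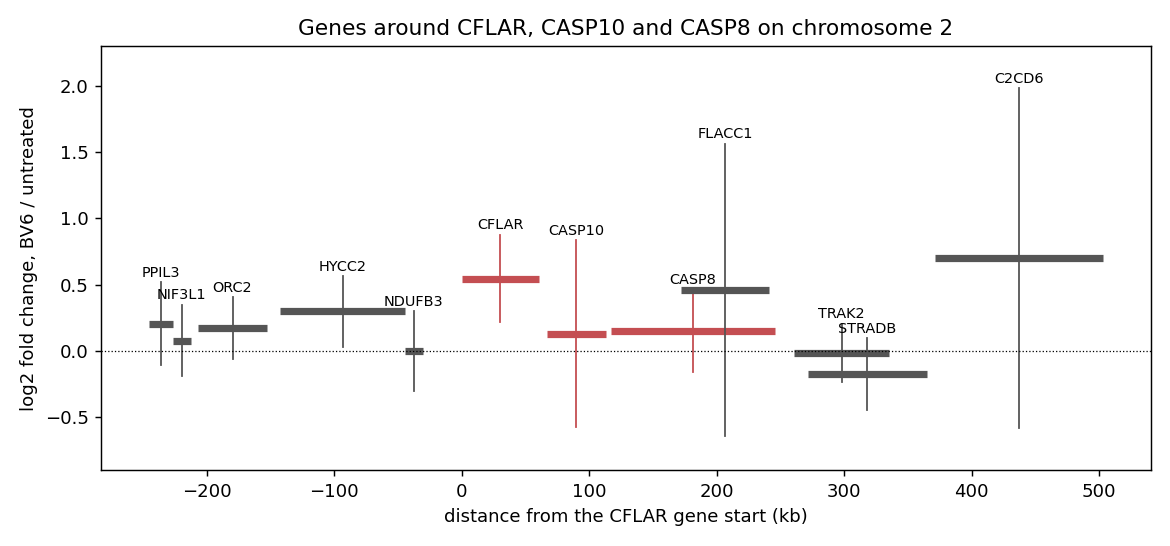
Log2 fold change (BV6 over untreated) of the tested protein-coding genes within 250 kb of CFLAR, CASP10 and CASP8, by distance from the start of CFLAR in kb. Thick horizontal bars span each gene (the 3 components in red), and thin vertical lines are 95% intervals. Those of CFLAR (0.21 to 0.87) and HYCC2 lie above 0, while none of the genes shown passed an adjusted p of 0.05.

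RIPK1, the kinase at the centre of the ripoptosome, was at 17.1, 18.7, 16.3 and 15.7 CPM in untreated replicates 1 to 4. In BV6 replicates 2 to 4 it was at 21.9, 18.8 and 15.0 CPM. The treated samples held both the highest and the lowest level of the 7. The log2 fold change was 0.13 with an SE of 0.152 and an adjusted p of 0.840 in edgeR, and the 95% interval of -0.21 to 0.47 leaves room for a modest change in either direction. For RIPK3, the partner kinase of necroptosis, levels were 0.0909, 0.0713, 0.0996 and 0.259 CPM without BV6. With BV6 they were 0.249, 0.0815 and 0.130 CPM. The groups overlapped and the log2 ratios within pairs 2, 3 and 4 had opposite signs, at 1.69, -0.27 and -0.94. A change of RIPK3 was not detectable at this depth.

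MLKL, the substrate of RIPK3 that ruptures the membrane, was at 2.25, 2.01, 2.21 and 1.75 CPM in untreated replicates 1 to 4. BV6 replicates 2 to 4 were at 2.35, 2.71 and 1.62 CPM. Here too the treated samples included the highest and the lowest of all 7 levels. The log2 fold change was 0.12 with an SE of 0.223 and an adjusted p of 0.911 in edgeR (95% interval -0.38 to 0.62). The ratio of MLKL to RIPK1 counts differed by -0.03 on the log2 scale between the groups (two-sided exact permutation p = 1).

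FADD, the adaptor that binds caspase-8, was at 42.2, 46.2, 31.0 and 37.7 CPM in untreated replicates 1 to 4 and at 42.6, 31.0 and 35.4 CPM in BV6 replicates 2 to 4. The groups overlapped, and replicate 3 was the lowest sample in both. The log2 fold change was -0.11 with an SE of 0.163 and an adjusted p of 0.872 in edgeR (95% interval -0.48 to 0.25). TRADD, the adaptor of the TNF receptor, was at 11.3, 8.78, 5.94 and 7.76 CPM without and 7.21, 5.97 and 10.4 CPM with BV6. Its untreated samples alone ranged from 5.94 to 11.3 CPM, and the treated samples lay inside that range. The log2 fold change of TRADD was -0.11 with an SE of 0.252 (adjusted p 0.930 in edgeR), and the pairs gave -0.28, 0.01 and 0.42. In the fit with the replicate block the TRADD value was 0.05, on the other side of 0, and 0 of the 7 components were called there, where 0.943% of all tested genes were called.

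**Figure D3:**
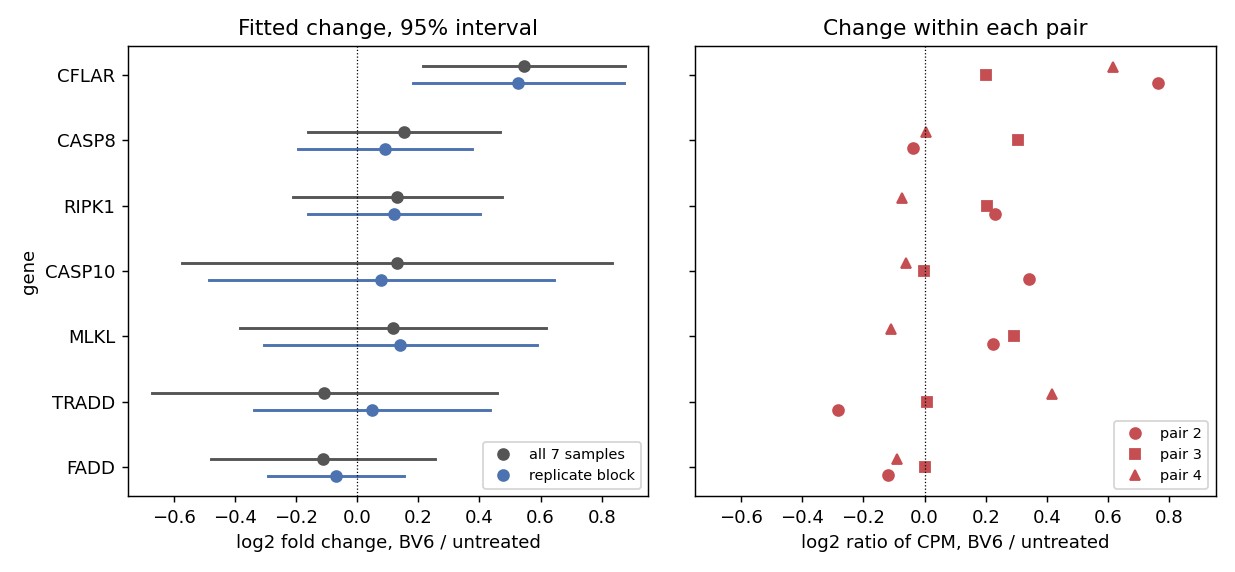
Log2 fold change (BV6 over untreated) of the 7 tested components with 95% intervals, in the fit on treatment alone and in the fit with the replicate block. The intervals of 6 components include 0 in both fits, and that of CFLAR runs from 0.21 to 0.87 and from 0.18 to 0.87.

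For each tested component, the 3 genes of similar pattern were taken by the root mean square difference of centred log2 CPM over the 7 samples, divided by the SD of the component. Nearest to CFLAR were DGKH, followed by ITGA1 (0.309) and FGD6 (0.326). Nearest to CASP8 was CUTC (0.132), to RIPK1 TP53RK (0.212), to CASP10 EIF4E3 (0.141), to MLKL RBM4B (0.372) and to TRADD AP002770.1 (0.331). Nearest to FADD was AP000879.1 (0.191), which had 0.807 to 0.894 times the counts of FADD in each of the 7 samples. In the annotation used here, 1011 of the 1708 exonic bases of FADD (59.2%) are shared with a lncRNA on the opposite strand. Whether AP000879.1 and that lncRNA are the same gene could not be matched, and how far shared reads make up the FADD counts was not tested.

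Around the components, 72 further genes of the pathway were listed by role, and 67 of them were tested. edgeR called 4 of the 67 as higher and 0 as lower with BV6 (0.394% and 0.0562% of all tested genes), and the median log2 fold change was 0.02 beside -0.01 over all tested genes. All 4 called genes came from the 13 ubiquitin ligases, deubiquitinases and their partners at complex I, whose median was 0.20. BIRC3 encodes cIAP2. It rose from 1.64, 4.74, 1.26 and 2.12 CPM in untreated replicates 1 to 4 to 102, 57.1 and 52.3 CPM in BV6 replicates 2 to 4. The groups were far apart, with a log2 fold change of 4.86, an SE of 0.451 and an adjusted p of 0.00341 in edgeR. BIRC2, which encodes cIAP1, rose from 66.1 ± 10.3 CPM (n = 4) to 192 ± 78.9 CPM (n = 3), with a log2 fold change of 1.54 (SE 0.237, adjusted p 0.0269 in edgeR). BV6 replicate 2, at 283 CPM, stood above the other BV6 samples at 152 and 142 CPM. CYLD, a deubiquitinase that removes chains from RIPK1, rose from 32.4 ± 3.18 CPM to 62.8 ± 4.80 CPM with a fold change of 0.96 on the log2 scale (SE 0.118, adjusted p 0.0109 in edgeR). TNFAIP3, which encodes the ubiquitin-editing enzyme A20, rose from 42.8 ± 4.69 CPM to 77.7 ± 4.54 CPM with a fold change of 0.86 on the log2 scale (SE 0.116, adjusted p 0.0145 in edgeR). BIRC3 and CYLD were called with each of the 7 samples left out in turn. BIRC2 lost its call when any untreated sample was left out, with adjusted p-values of 0.0892, 0.0558, 0.0993 and 0.101 for untreated replicates 1 to 4. TNFAIP3 lost its call without untreated replicates 1, 3 or 4 or BV6 replicate 2, at 0.0606, 0.0775, 0.0536 and 0.0581.

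The promoters of BIRC3, TNFAIP3 and CYLD are printed to set their κB matches beside that of CFLAR, as 250 bases before a RefSeq start on the plus strand of GRCh38.p14, with the matches in capitals, all 5 on the minus strand. They stand at chr11:102317234-102317483, chr6:137867009-137867258 and chr16:50741836-50742085. No match was found in the 2 promoters of BIRC2.
BIRC3: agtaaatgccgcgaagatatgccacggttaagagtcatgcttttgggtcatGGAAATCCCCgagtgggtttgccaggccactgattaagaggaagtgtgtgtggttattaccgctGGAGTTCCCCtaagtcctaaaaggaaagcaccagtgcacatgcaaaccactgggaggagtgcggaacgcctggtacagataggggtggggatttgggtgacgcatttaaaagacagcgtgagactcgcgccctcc
TNFAIP3: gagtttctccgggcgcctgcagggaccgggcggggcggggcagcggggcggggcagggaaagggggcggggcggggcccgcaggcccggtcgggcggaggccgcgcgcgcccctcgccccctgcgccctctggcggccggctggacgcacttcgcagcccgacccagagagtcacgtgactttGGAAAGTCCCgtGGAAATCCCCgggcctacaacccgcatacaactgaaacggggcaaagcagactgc
CYLD: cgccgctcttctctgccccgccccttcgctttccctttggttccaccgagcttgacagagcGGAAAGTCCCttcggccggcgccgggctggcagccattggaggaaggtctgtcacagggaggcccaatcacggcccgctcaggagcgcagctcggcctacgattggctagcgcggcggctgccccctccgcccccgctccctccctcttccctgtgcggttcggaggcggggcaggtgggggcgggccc
The matches begin 199 and 135 bases before the start of BIRC3, 67 and 55 before that of TNFAIP3 and 189 before that of CYLD. A further CYLD start had a match that begins at the start itself, and the CYLD promoter at chr16:50741906-50742155 held none. Among all genes with promoters, 7.09% had a match in any of them.

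In the other lists edgeR called 0 genes. In the list of ligands and receptors no ligand passed the filter, and the 6 tested genes were receptors. Their median log2 fold change was 0.42, with 4 above 0 and 2 below. FAS (0.36) and TLR3 (0.53) had only 9 to 27 and 12 to 30 counts per sample. TNFRSF1A was at -0.17 and TNFRSF25 at -0.02. TNFRSF10B, the TRAIL receptor DR5, was at 109 ± 9.92 CPM (n = 4) and 151 ± 11.6 CPM (n = 3) without overlap, with a log2 fold change of 0.47 (SE 0.109, adjusted p 0.156 in edgeR). It was higher in 3 of 3 pairs, and with the replicate block its adjusted p was 0.0510 in edgeR and 0.0102 in DESeq2, which called it. Groups without overlap and with BV6 higher were found for 4.94% of all tested genes. TNFRSF10A, the receptor DR4, had 4 to 28 counts per sample and a value of 0.86 (adjusted p 0.722). The 11 kinases and adaptors of complex I had a median of 0.0041, with the smallest p for TANK (0.27) and TBK1 (0.24). The 11 genes listed as relatives with death-effector or death domains or of the RIP family include CUL3, which belongs to none of these groups. Their median was 0.09, with CRADD at 0.28 and CUL3 at 0.16. For the 18 tested regulators of necroptosis it was -0.03, with IPMK at 0.26 and STUB1 at -0.30. The 8 genes downstream of caspase-8 had a median of -0.07, with the gasdermin gene GSDME at 0.12 and PARP1 at -0.10. Without the 4 called genes, the 63 others of the pathway had a median of 0.01.

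**Figure D4:**
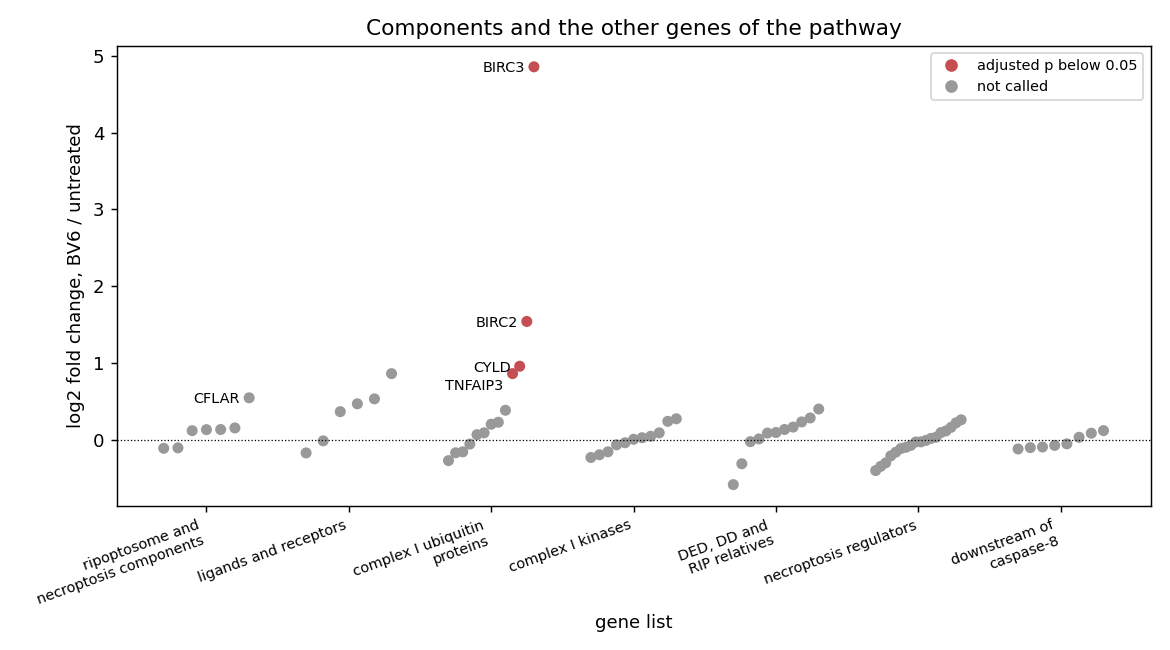
Log2 fold change (BV6 over untreated) of each tested gene, by list, with genes at an adjusted p below 0.05 in red. BIRC3, BIRC2, CYLD and TNFAIP3 are the 4 called genes, and the 7 components lie between -0.11 and 0.54.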

How the data were processed

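The authors isolated poly(A)-selected RNA from RH30 cells, prepared stranded libraries and mapped reads to GRCh38 with STAR 2.6.1d (per the submitters' processing notes). They deposited whole-number counts per gene for 57189 genes without normalization. Counting used a custom model that joins the isoforms of each Ensembl gene. Its program, its use of strand and its treatment of read pairs are not given in the sources used here. Totals were 54070030 to 77220882 counts, above the range of reads per library in the methods of the study, and whether both mates of a paired-end read were counted was not tested. Groups and replicate numbers came from the labels.

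BV6 was compared with untreated cells by the quasi-likelihood test of edgeR 4.0.16 under R 4.3.3 on 7 samples, with treatment as the only term and TMM scaling. Genes were filtered with filterByExpr (minimum 10 counts), and p-values were adjusted by the Benjamini-Hochberg method over 23124 genes. Each SE was the fold change divided by the root of F. Ratios used counts plus 0.5. The code was tested on simulated data. Alternatives used the replicate block, DESeq2 1.42.0, limma-voom (limma 3.58.1), RLE factors, other filters and each sample left out. The numbers were taken as pairs, because the titles share BC labels (their meaning is not given) and same-numbered samples deviated together over the paired samples, with correlations across genes of 0.515, 0.322 and 0.197. With untreated replicate 1 in the group mean, they were 0.462, 0.438 and 0.0847. Samples of different number reached 0.132 in the first check and 0.278 in the second, so the pairing of replicate 4 is the least sure. Replicate 1 carries no weight in the blocked fit.

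GENCODE 44 (GRCh38) gave positions and exon lengths for 37475 genes, and RefSeq (GRCh38.p14) the promoters, 250 bases before to 50 after each start. The members and lists were chosen with earlier results of these data known. Named were all members, in each pathway list the genes with an adjusted p below 0.05 and the 2 with the smallest p, the 3 genes nearest in pattern (mean log2 CPM of at least 3), and genes that overlap a member or lie beside neighbouring members. Where fewer are printed, this was for brevity. Muscle genes and leukocyte markers were further lists.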

Additional observations from a re-analysis of the deposited data

Results flagged for a closer look

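One value stood apart from its group. Among the untreated samples, RIPK3 in replicate 4 was at 0.259 CPM, and the other untreated samples were at 0.0713 to 0.0996 CPM. The gap to the nearest sample was 0.849 of the whole range, which is above the critical value of Dixon's test for 4 samples at the 95% level. The sample rests on 16 counts of RIPK3, and 26 quantities were examined in this way, of which chance would mark about 1 in 20.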

How the results depend on the processing

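In every alternative 0 of the 7 tested components passed an adjusted p of 0.05, beside 38 to 514 calls over all genes. RIPK3 had an adjusted p in 4 alternatives and was called in 0 of them. In the 2 of these without a single sample it was 0.893 and 0.999 in edgeR. With each untreated sample left out in turn, 6 of 8 were expressed. CFLAR was higher with BV6 in all 14, with log2 fold changes of 0.48 to 0.63 without single samples. MLKL, TRADD and CASP10 changed sign in some alternatives, and the other 4 of the 7 components did not. MLKL ran from -0.045 (without BV6 replicate 3) to 0.30. TRADD was at 0.048 (edgeR) and 0.038 (DESeq2) with the replicate block, and without single samples it ran from -0.36 to 0.07, with 0.068 without untreated replicate 1 and 0.060 without BV6 replicate 3. CASP10 ran from -0.03 to 0.32, with -0.032 without untreated replicate 2 and -0.012 without BV6 replicate 4. Without single samples RIPK1 ran from 0.0056 to 0.26, FADD from -0.24 to -0.0073 and CASP8 from 0.076 to 0.24. The cause was not tested.

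Over all genes, 104 calls became 218 with the replicate block, 242 without the filter, 401 with DESeq2, 514 with DESeq2 and the block, and 38 to 89 without single samples. For the pathway list the 4 calls became 2 to 4 without single samples, with 2 without untreated replicate 1, 3 or 4. DESeq2 with the block called 5, TNFRSF10B among them. Without single samples, the log2 difference of the ratio of CFLAR to CASP8 ran from 0.26 to 0.54, that of CASP10 to CASP8 from -0.25 to 0.22, that of MLKL to RIPK1 from -0.16 to 0.045, and that of TRADD to FADD from -0.23 to 0.17. By the mean of the pair differences (the replicate block), MLKL to RIPK1 gave 0.015. The block changed no call among the components. Counts of 4 to 16 for RIPK3 and 33 to 78 for CASP10 limit what could be seen, and intervals cover the spread between these samples only.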

Other observations

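5 listed genes of the pathway did not pass the filter on low counts, and neither did RIPK3 among the components. TNF had 2 to 11 counts per sample, and the death ligands FASLG and TNFSF10 had 0 to 7 and 0 to 10 counts. TNFSF15, a ligand of the TNF family, had 4 to 24 counts. ZBP1, a nucleic acid sensor that can engage RIPK3, had 2 to 11 counts. Of the receptors for these ligands, FAS had 9 to 27 and TNFRSF10A 4 to 28 counts per sample. The TNF receptor gene TNFRSF1A was at a mean of 63.0 CPM in untreated and 55.8 CPM in BV6-treated cells. TNFRSF10B, a receptor for TNFSF10, was at a mean of 109 CPM in untreated and 151 CPM in BV6-treated cells.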
